A study of Mus musculus with 32 samples.

Results

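The expression of 43 genes of the cell cycle was described in 32 primary mouse melanomas. The genes were chosen by name, 18 that act in S phase and 25 that act in mitosis, and their rows were found by Ensembl identifier with the symbols of GENCODE M21, all 43 of them among 50600 rows. All 43 also passed the filter on low counts, as 1 part of the 17717 genes tested. The melanomas fell into 4 groups of 8 by genotype and sex. Every mouse carried an NrasQ61K oncogene under the tyrosinase promoter, which is active in melanocytes, together with 1 lost copy of Cdkn2a and a floxed Cdh1 gene on both chromosomes (Cdh1F/F), on a C57BL/6J background. Ecad mice had no further transgene (°/°). The labels of ΔEcad mice list Tyr::NRAS/° in that place, where the methods of the study give Tyr::CreA/°, a Cre recombinase under the tyrosinase promoter that removes Cdh1, which encodes E-cadherin, in the melanocyte lineage. The ages of the mice are not given in the sources used here. Each tumour counts as 1 replicate. The labels do not say that each came from a separate mouse, so p-values measure the spread between these samples, some of which may share a mouse.

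A cell that divides first copies its DNA in S phase and then parts the copies in mitosis. Entry into S phase is set by the retinoblastoma protein, which holds E2F transcription factors back until cyclin-dependent kinases phosphorylate it. The p16 product of Cdkn2a inhibits those kinases, and NRAS signals through the MAP kinase pathway to the D-type cyclins that activate them. Genes for replication are switched on through E2F sites, and genes for mitosis are switched on later by the MuvB complex with Mybl2 and Foxm1, through a DNA element called the CHR and through CCAAT boxes bound by NF-Y. In bulk tissue the RNA of these genes mixes the share of cycling cells with the RNA made per cell, and fewer cycling cells and less RNA per cell cannot be told apart. Nor can cycling melanoma cells be told apart from cycling cells of the stroma.

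Total counts per tumour ranged from 24036333 to 63923086. Cdh1 was at 0.79 to 65.2 TPM (a level scaled for gene length and library) in ΔEcad males against 25 to 281.9 TPM in Ecad males, with medians of 3.29 and 144.6 TPM and some overlap. It was at 0.17 to 143.2 TPM in ΔEcad females against 2.16 to 151.2 TPM in Ecad females. The median was higher in ΔEcad females (46.7 against 30.6 TPM), which goes against the label. Cre acts in the melanocyte lineage, while these levels are those of bulk tissue. The summed level of 10 keratinocyte markers also differed between the genotypes. Its median was higher with the ΔEcad label among females (6944 against 8.2 TPM) and lower among males (527.1 against 5027 TPM). The part of skin in the Cdh1 levels of either sex was not tested. Which female tumours count as ΔEcad is therefore known from the labels alone, and every direction between the female genotypes is one between libraries labelled so. A library labelled ΔEcad male 2 had 6.41 TPM of the X-inactivation gene Xist and 0 counts over 4 genes of the Y chromosome. Another, ΔEcad male 7, held 31.97 TPM over 10 melanocytic markers, where the other 31 tumours held at least 5896. ΔEcad female 3 had all 4 haemoglobin genes at 0 and 5 of 8 macrophage markers at 0. The tumours also differed in how long genes stood against short ones. The mean log2 CPM (CPM being counts scaled to a common library size) of 1886 genes with at least 8116 exon bases, less that of 1887 genes with at most 2751, ran from -1.48 in ΔEcad male 1 and -1.08 in ΔEcad male 2 to 0.89 in ΔEcad female 3 after centring. Several results are also given without some of these libraries.

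The start regions of the members were read first. Whether the sequences found there go with the way members moved between tumours was not tested. RefSeq start regions, reaching 250 bases before to 50 bases after a start on GRCm38.p6, were matched to 35 of the 43 members, 15 of S phase and 20 of mitosis. Each was searched on both strands for E2F words (TTTGGCGC, TTTCGCGC, TTTCCCGC and TTTGCCGC), and for CCAAT. The CHR was searched as TTTGAA, and also in the variant forms TTTAAA, which reads the same on both strands, then TTCGAA, which does so too, and finally CTTGAA. E2F words can overlap each other where one lies on each strand. An E2F word was in 40% of the S phase members (6 of 15), in 5.0% of the mitosis members (1 of 20) and in 2.32% of all 27025 genes with a start region. CHR words are short and common, in 37.6% of all genes, and were in 46.7% of the S phase members and 90% of the mitosis members (18 of 20). CCAAT was in 60%, 85.0% and 37.9% of these. A CHR word and CCAAT together were in 33.3% of the S phase members, in 85.0% of the mitosis members (17 of 20) and in 14.8% of all genes. These are matches of letters, and no binding was measured.

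Stretches before the start of 8 members show how the words are placed, with E2F, CHR and CCAAT words in capitals on either strand and each sequence written 5′ to 3′ in the direction of the gene. Bases are counted back from the RefSeq start, with -1 just before it. In the mitosis members Top2a, Kif11, Plk1, Cdk1 and Cdc20 a CCAAT box on either strand stands near a CHR word. That of Cdc20 begins at -53 and its CHR word TTTGAA at -18, and those of Kif11 begin at -45 and -19. Cdk1, the kinase that starts mitosis, was the mitosis member with an E2F word, at -131. Mki67, which encodes the proliferation marker Ki-67, has 2 TTTGAA words, at -116 and -98. The S phase members Mcm6 and Mcm5, subunits of the replicative helicase, each hold a pair of E2F words on opposite strands that overlap by 4 bases, beginning at -110 and -106 in Mcm6 and at -153 and -149 in Mcm5. Mcm6 has another E2F word at -47.
Top2a, chr11:99024190-99024314, minus strand: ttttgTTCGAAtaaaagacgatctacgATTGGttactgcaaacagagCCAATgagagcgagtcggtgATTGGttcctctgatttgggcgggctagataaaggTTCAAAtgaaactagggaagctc
Kif11, chr19:37376302-37376381, plus strand: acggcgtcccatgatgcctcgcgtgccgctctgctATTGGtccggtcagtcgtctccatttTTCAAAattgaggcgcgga
Plk1, chr7:122159335-122159434, plus strand: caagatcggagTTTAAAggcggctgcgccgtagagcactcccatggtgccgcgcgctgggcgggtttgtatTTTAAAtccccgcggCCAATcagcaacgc
Cdk1, chr10:69352939-69353052, minus strand: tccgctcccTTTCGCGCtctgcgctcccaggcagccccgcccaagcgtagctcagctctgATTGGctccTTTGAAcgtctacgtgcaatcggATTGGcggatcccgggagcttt
Cdc20, chr4:118437353-118437433, minus strand: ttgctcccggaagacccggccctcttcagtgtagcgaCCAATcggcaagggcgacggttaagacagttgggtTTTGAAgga
Mki67, chr7:135716464-135716574, minus strand: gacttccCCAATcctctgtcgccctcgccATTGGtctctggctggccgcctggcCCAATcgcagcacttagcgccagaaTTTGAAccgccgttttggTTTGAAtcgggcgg
Mcm6, chr1:128359706-128359825, minus strand: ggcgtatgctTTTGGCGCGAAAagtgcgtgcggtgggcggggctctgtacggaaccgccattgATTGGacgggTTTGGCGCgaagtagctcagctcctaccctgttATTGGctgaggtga
Mcm5, chr8:75109349-75109508, plus strand: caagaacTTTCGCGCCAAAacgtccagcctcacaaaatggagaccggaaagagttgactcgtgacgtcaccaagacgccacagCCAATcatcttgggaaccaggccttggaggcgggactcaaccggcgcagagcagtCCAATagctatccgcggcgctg

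RNA of every member was found in every tumour, and the lowest count of any member in any tumour was 8, for Ccne2. Levels differed widely between tumours of the same group. Each class was summarized by a score, the mean log2 CPM over its members. The S phase score ran from 3.66 to 5.49 in Ecad males, from 2.87 to 5.86 in Ecad females, from 4.09 to 6.43 in ΔEcad males and from 3.79 to 6.79 in ΔEcad females, with medians of 4.33, 5.22, 4.64 and 4.62. The mitosis score ran from 3.21 to 5.49, from 3.21 to 5.53, from 3.80 to 6.05 and from 1.66 to 7.01 in the same order, with medians of 4.39, 4.82, 4.56 and 4.74. The 4 groups overlapped on both scores, and the ΔEcad females held both the highest and the lowest mitosis score of the 32 tumours. In summed TPM, the 25 mitosis members together reached 2902 TPM in ΔEcad female 3 and 76.7 TPM in ΔEcad female 5, and the 18 S phase members 2329 TPM and 290.1 TPM in these tumours.

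**Figure D1:**
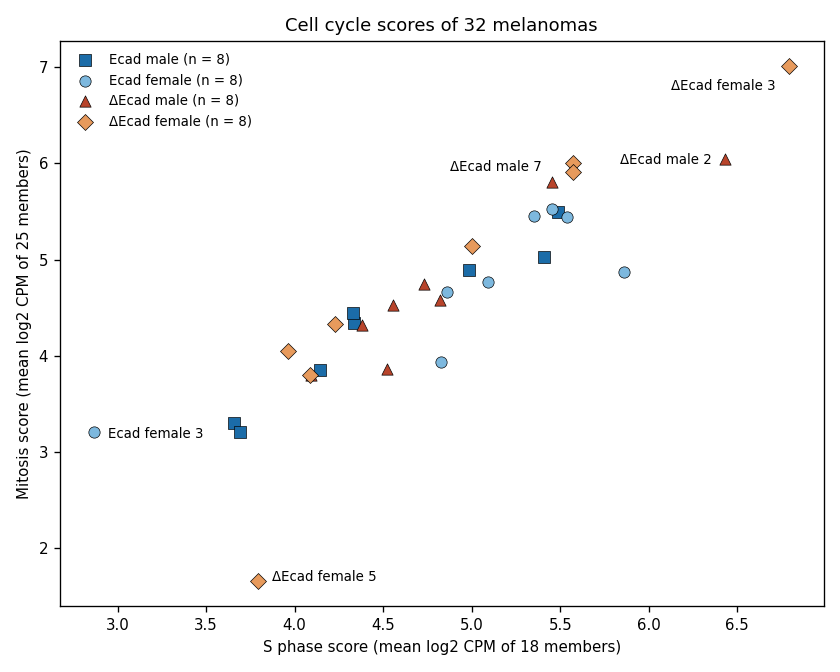
Each point is 1 tumour, with its S phase score (mean log2 CPM of 18 members) on the horizontal axis and its mitosis score (mean log2 CPM of 25 members) on the vertical axis, and the marker gives its group. The points lie along a line (Pearson r = 0.89, n = 32) with the 4 groups mixed along it, ΔEcad female 3 at the upper end at 6.79 and 7.01, and ΔEcad female 5 below the line at 3.79 and 1.66.

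The S phase and mitosis scores rose and fell together from tumour to tumour. Pearson's r was 0.89 and Spearman's rho 0.94 over the 32 tumours, and 0.89 and 0.94 on deviations from the group means. Without the 2 tumours farthest from the median mitosis score r was 0.91. Both scores of a tumour come from the same library and normalization, so these values are a description. Of the 5 tumours with the highest S phase score, 4 were also among the 5 with the highest mitosis score, and the same held for the lowest 5. Single members followed the pattern. Over pairs of members, the median r of their deviations was 0.79 within S phase (153 pairs), 0.83 within mitosis (300 pairs) and 0.73 between the classes (450 pairs), against -0.03 between members and all other genes tested. Tpx2, a spindle assembly factor, followed the other mitosis members most closely (r = 0.97), with Prc1, which bundles microtubules of the spindle midzone, and Ccna2, cyclin A2, also at 0.97. In S phase, the helicase subunit Mcm3 (r = 0.96), the licensing factor Cdc6 and the helicase cofactor Cdc45 (both 0.95) led. The members least like their class were Cdt1 (r = 0.51), which loads the helicase onto origins and is controlled mainly through breakdown of its protein, Mki67 (0.68) and Pcna (0.70), the sliding clamp of the DNA polymerases.

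**Figure D2:**
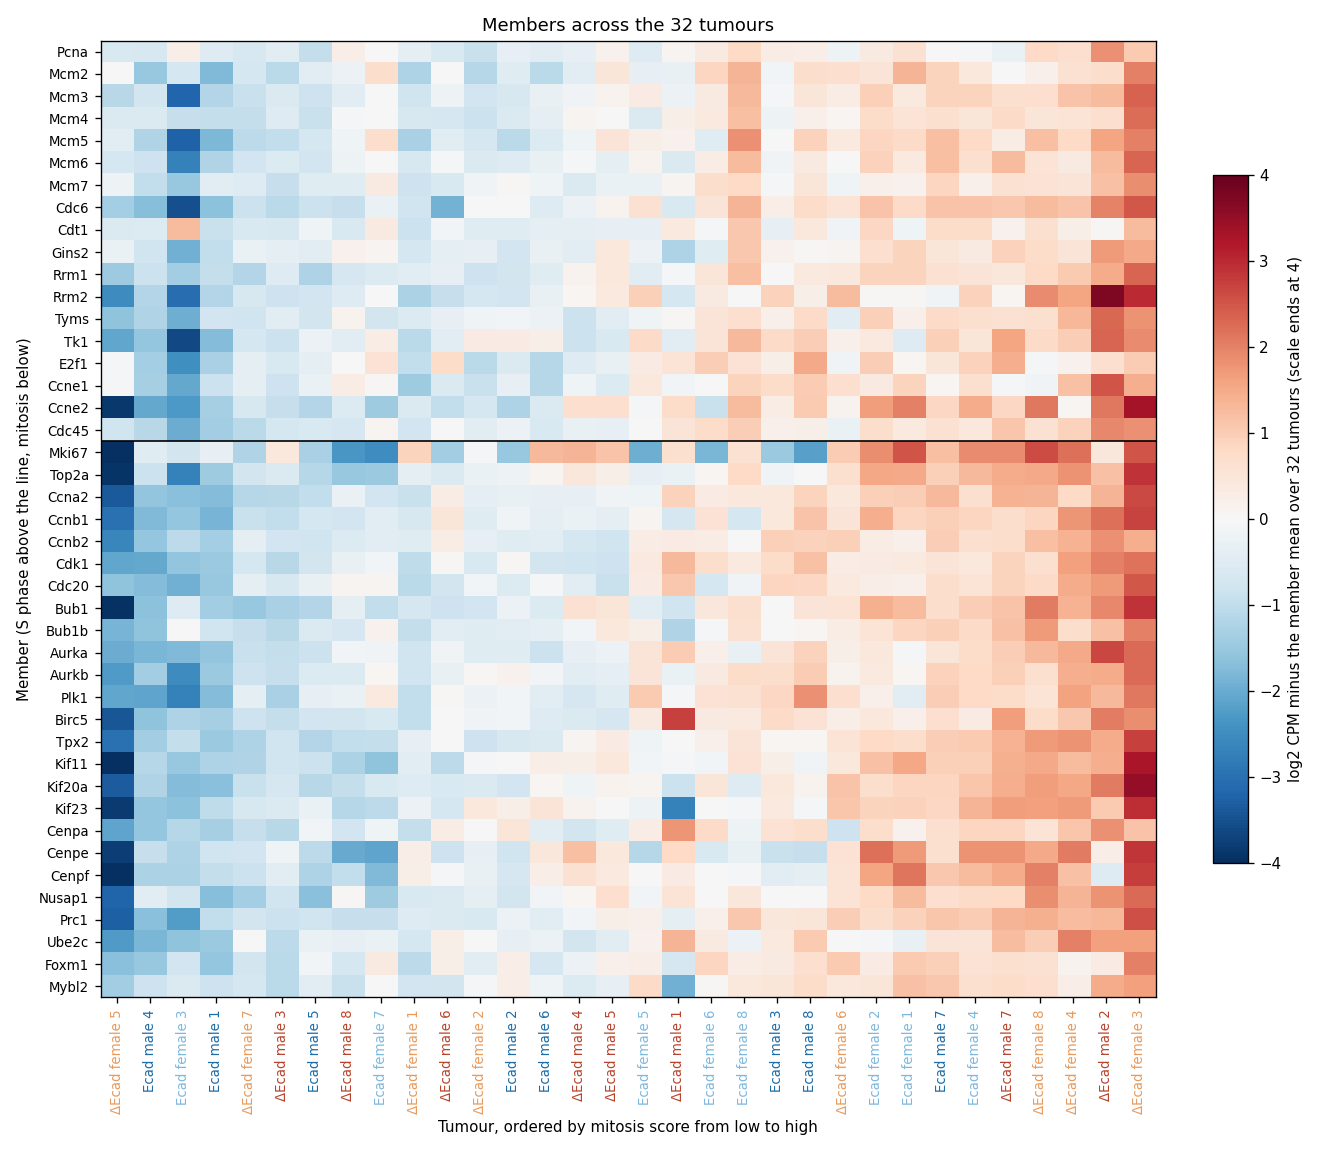
Rows are the 43 members, S phase above the line and mitosis below, and columns are the 32 tumours ordered by mitosis score from low to high, with names coloured by group. Colour is log2 CPM minus the mean of that member over the tumours, on a scale that ends at 4 in both directions. Most rows pass from blue to red together, Mki67 switches between neighbouring columns, Pcna and Cdt1 stay pale, and ΔEcad male 1 stands out in Birc5 and Kif23.

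Some tumours lay apart on nearly all members of a class. ΔEcad female 3 held the highest level of the 32 tumours for 14 of 18 S phase members and for 24 of 25 mitosis members. On average its S phase members stood 2.19 and its mitosis members 2.60 above the mean of the other 7 ΔEcad females (log2 CPM). ΔEcad female 5 held the lowest level for 20 of 25 mitosis members but for 1 of 18 S phase members, Ccne2, and stood 3.52 below the other 7 ΔEcad females on the mitosis members and 1.24 below on the S phase members. Its Top2a was 1.25 TPM, its Ccnb1 1.75 TPM and its Mki67 0.28 TPM, while its Pcna was 80.2 TPM and its Mcm5 21.5 TPM. Ecad female 3 was low in both classes, lowest for 13 of 18 S phase members and for 3 of 25 mitosis members. It stood 2.41 below the other 7 Ecad females on the S phase members and 1.74 below on the mitosis members. All 25 mitosis members were under the median of the 32 tumours in it. Its Cdc6 was at 0.23 TPM and its Tk1, thymidine kinase, at 0.87 TPM, but its Cdt1 was at 44.5 TPM. ΔEcad male 2 was highest for 3 S phase members, Rrm2, Pcna and Ccne1. The mitosis score less the S phase score was thus -2.13 in ΔEcad female 5 and between -0.99 and 0.43 in the other 31 tumours. Marker levels in these tumours were uneven. In ΔEcad female 5 the 8 macrophage markers summed to 4233 TPM and the 10 melanocytic markers to 22420 TPM. Ecad female 3 had 244.9 and 43030 TPM of these, and ΔEcad female 3 had 11.7 and 9698 TPM. The 7 fibroblast markers summed to 9390 TPM in ΔEcad female 3, the highest of the 32 tumours, to 362.4 TPM in ΔEcad female 5 and to 141.5 TPM in Ecad female 3. In ΔEcad female 3 these markers were split. Col1a1 was at 4361, Col3a1 at 2817, Col1a2 at 1909, Pdgfrb at 224.4 and Pdgfra at 76.24 TPM. Dcn at 2.24 TPM and Lum at 0.11 TPM were the lowest of the 32 tumours. As a mean of log2 CPM its fibroblast score was 7.70, against 9.96 in ΔEcad male 7. The part of these markers in the member levels was not tested.

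Among mitosis members, the cyclins and kinases are taken first. Ccnb1, cyclin B1, which activates Cdk1, ran from 4.33 to 31.2 TPM in Ecad males (median 16), from 4.39 to 52 TPM in Ecad females (median 19.1), from 4.84 to 53.1 TPM in ΔEcad males (median 15.3) and from 1.75 to 126 TPM in ΔEcad females (median 17.5). Cdk1 ran from 6.22 to 53.9 TPM in Ecad males (median 27.3), from 7.43 to 43.4 TPM in Ecad females (median 38), from 13.4 to 81 TPM in ΔEcad males (median 21.4) and from 5.68 to 149.6 TPM in ΔEcad females (median 26.5). Ecad females thus had the lowest top of the range for Cdk1, and the groups overlapped for both genes. Aurkb, the Aurora kinase of the chromosomal passenger complex, had group medians of 22.2, 24.4, 14.1 and 19.8 TPM in Ecad males, Ecad females, ΔEcad males and ΔEcad females, within an overall range of 2.52 to 103.8 TPM. Plk1, polo-like kinase 1, had medians of 33.4, 41.5, 25.5 and 40.2 TPM in that order and ranged from 3.95 to 166.4 TPM. For both kinases the lowest tumour was Ecad female 3 and the highest ΔEcad female 3. Cdc20, which activates the anaphase-promoting complex, had medians of 47.5, 56.5, 38.8 and 54.8 TPM and ranged from 10.3 to 320.0 TPM. Whether reads were counted by strand is not given in the sources used here, and the overlapping gene Elovl1 had 330.7% of the counts of Cdc20, so its level is uncertain. The same holds for Ube2c, the ubiquitin-conjugating enzyme of the anaphase-promoting complex, which overlaps the muscle gene Tnnc2 (290.2% of its counts). Over the 11 members with such a partner, r of member and partner ran from -0.38 for Gins2 with Gse1 to 0.885 for Nusap1 with Oip5 (on deviations from group means, n = 32), and was -0.25 for Ube2c with Tnnc2 and 0.10 for Cdc20 with Elovl1.

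Top2a, topoisomerase II alpha, which untangles chromosomes, ran from 8.77 to 42.8 TPM in Ecad males (median 19.4), from 2.72 to 75.5 TPM in Ecad females (median 26.3), from 5.06 to 70.7 TPM in ΔEcad males (median 22.8) and from 1.25 to 194 TPM in ΔEcad females (median 26.6). Mki67 (ENSMUSG00000031004, chromosome 7, 135689784 to 135716361, minus strand, GRCm38), which coats mitotic chromosomes, ran from 2.54 to 36.4 TPM in Ecad males (median 7.55), from 2.24 to 91.4 TPM in Ecad females (median 12.3), from 1.8 to 56.7 TPM in ΔEcad males (median 15.9) and from 0.28 to 109 TPM in ΔEcad females (median 27.7). It had the widest range of the members, 390.0-fold between the highest and the lowest tumour, and its medians rose over the 4 groups in that order while the ranges overlapped. Of the 2 transcription factors, Foxm1 had medians of 22.5, 26.4, 17.9 and 16.6 TPM and a range of 5.22 to 91.5 TPM, and Mybl2 medians of 6.28, 7.48, 3.46 and 5.49 TPM and a range of 0.66 to 19.4 TPM. Both had lower medians in the ΔEcad than in the Ecad group of each sex, with overlapping ranges. The remaining mitosis members, spindle motors, kinetochore proteins and checkpoint kinases, had overall medians from 2.79 TPM for Cenpf, a kinetochore protein, to 44.6 TPM for Ccnb2, cyclin B2.

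Among S phase members, Pcna ran from 80.7 to 175 TPM in Ecad males (median 125), from 103 to 249 TPM in Ecad females (median 151), from 72.4 to 353 TPM in ΔEcad males (median 122) and from 73.9 to 344 TPM in ΔEcad females (median 121). It had the highest median of all members, 133.1 TPM over the 32 tumours, and the narrowest range, 4.87-fold. Mcm2, a helicase subunit, had group medians of 23.4, 41.8, 23.6 and 30.0 TPM in the order of groups used above and ranged from 8.60 to 132.7 TPM. Mcm5 ran from 10.4 to 77.2 TPM in Ecad males (median 24.2), from 2.8 to 103 TPM in Ecad females (median 58), from 17.6 to 71.6 TPM in ΔEcad males (median 28) and from 13.5 to 161 TPM in ΔEcad females (median 32.6). In each of these 3 genes the Ecad females had the highest group median. The loaders of the helicase followed, Cdc6 with medians of 3.33, 6.03, 2.52 and 4.2 TPM and a range of 0.23 to 22.2 TPM, and Cdt1 with medians of 20.2, 34.7, 17.2 and 18.9 TPM and a range of 10.1 to 65.5 TPM. Here too the Ecad females stood highest by median and overlapped with the others.

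The supply of nucleotides was represented by Rrm2, the subunit of ribonucleotide reductase that rises in S phase, by Tyms, thymidylate synthase, and by Tk1. Rrm2 (ENSMUSG00000020649, chromosome 12, 24708241 to 24714146, plus strand) ran from 15.6 to 74.3 TPM in Ecad males (median 31), from 3.66 to 83.3 TPM in Ecad females (median 43.7), from 11.3 to 365 TPM in ΔEcad males (median 34.5) and from 5.77 to 358 TPM in ΔEcad females (median 58.3). It was highest in ΔEcad male 2 at 364.5 TPM and ΔEcad female 3 at 358.4 TPM, and 3 more ΔEcad females, at 188.5, 99.1 and 91.8 TPM, also lay above the highest Ecad tumour at 83.3 TPM. Tyms had medians of 10.1, 12.3, 7.25 and 8.19 TPM and a range of 2.02 to 40.1 TPM, and Tk1 medians of 19.2, 18.2, 8.54 and 16.5 TPM and a range of 0.87 to 58.9 TPM. Tk1 overlaps Afmid, which had 6.64% of its counts. Of the regulators of entry, E2f1 had medians of 25, 39.2, 26 and 25.4 TPM and a range of 4.25 to 91.9 TPM, and Ccne1, cyclin E1, medians of 13.4, 20.6, 11.3 and 14.2 TPM and a range of 2.70 to 57.0 TPM. Ccne2, cyclin E2, had medians of 1.63, 4.07, 3.48 and 2.17 TPM and the lowest overall median of the members, 2.24 TPM, but its level is uncertain beside the overlapping Ints8 (492.8% of its counts).

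**Figure D3:**
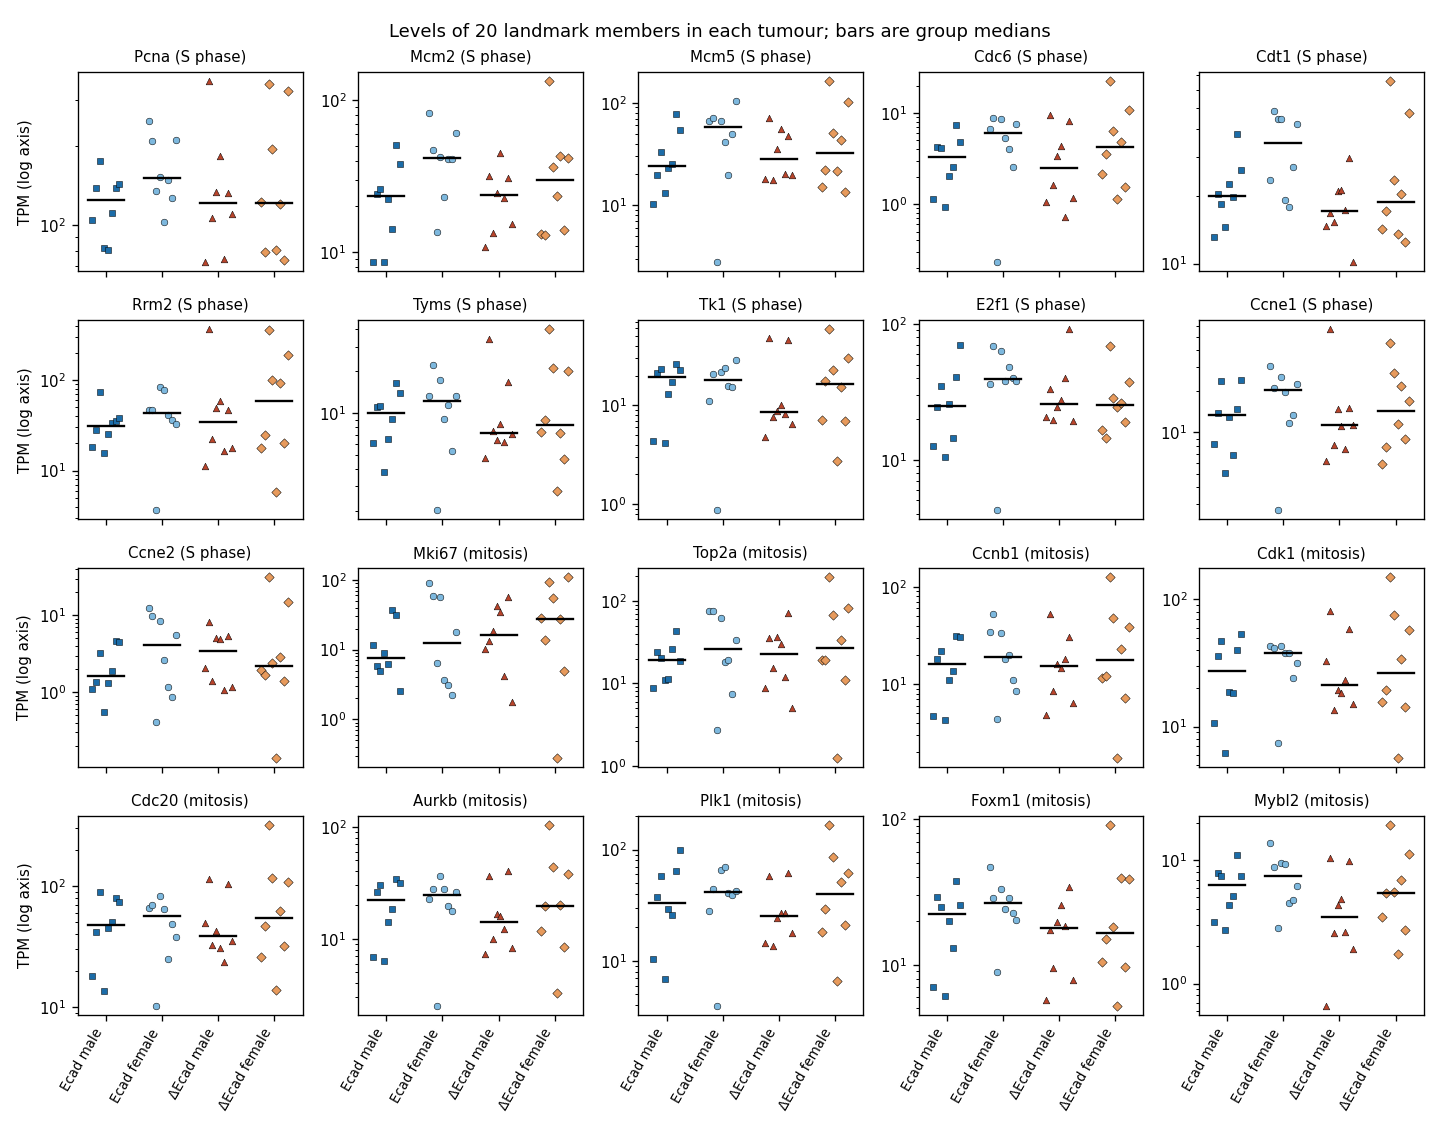
Each panel is 1 of 20 landmark members, with the level of each of 32 tumours in TPM on a log axis and the 4 groups of 8 along the horizontal axis, and bars at the group medians. The 4 groups overlap in every panel. Pcna keeps to 72.4 to 352.5 TPM, while Mki67 spreads from 0.28 to 109.2 TPM.

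The first comparison asked whether loss of Cdh1 went with another level of the cell cycle genes in female tumours. No member passed the test there. The threshold was an edgeR adjusted p under 0.05 with an absolute log2 fold change over 1, and 1.2% of the genes tested passed it. At an unadjusted p under 0.05, 0 of 43 members passed in edgeR, against 15.3% of the genes tested, and DESeq2 had 1 member, higher in ΔEcad (17.6% of genes tested), and limma voom 5, all lower (16.7%), with none past the adjusted threshold. By class, DESeq2 had 1 mitosis member, and limma voom had 4 of 18 S phase and 1 of 25 mitosis members. For 0 of 43 members were the 2 groups of 8 free of overlap (0.0339% of genes tested). The median log2 fold change was 0.48 over the mitosis members, 22 of 25 above 0, and 0.09 over the S phase members, 11 of 18 above 0, where the median of all genes was -0.02. By group medians of TPM, in contrast, 12 of 43 members were higher in ΔEcad than in Ecad females. Without ΔEcad female 3 the medians of the log2 fold changes were -0.08 for mitosis and -0.41 for S phase, and in limma voom, which gives less weight to libraries that stand apart, they were -0.46 and -0.64.

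Markers of skin and muscle also differed between the female genotypes. The 10 keratinocyte markers summed to 5.31 to 2001 TPM in Ecad females (median 8.20) and to 9.56 to 36460 TPM in ΔEcad females (median 6944), and the 6 skeletal muscle markers to 2.63 to 4141 TPM (median 15.0) and 4.21 to 23210 TPM (median 977.2). Krt5, Krt14, Krt15 and Krt1 were all at 0 in 2 Ecad and 1 ΔEcad females. With the keratinocyte and melanocytic scores as covariates the median log2 fold change was 0.60 for S phase, 17 of 18 above 0, and 0.92 for mitosis, 25 of 25 above 0. At an unadjusted p under 0.05 stood 5 members in that fit, all higher, against 8.56% of genes tested, and none passed the adjusted test. All 5 were mitosis members. The part of skin in the difference was not tested beyond this, and the part of muscle was not tested.

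In full, the smallest p among members with higher values in ΔEcad females belonged to Kif20a, a kinesin of cytokinesis, at 1.16 (SE 0.63, adjusted p 0.394), to Ube2c at 0.77 (SE 0.48, adjusted p 0.485) and to Kif23, another kinesin of cytokinesis, at 0.95 (SE 0.60, adjusted p 0.489). These are edgeR log2 fold changes and adjusted p-values over all genes. Kif20a ran from 3.46 to 35.9 TPM in Ecad females (median 16.6) and from 1.23 to 198 TPM in ΔEcad females (median 21.5). The highest value was that of ΔEcad female 3, without which its log2 fold change was 0.27. Kif23 stood at 0.39 without that tumour. Kif20a overlaps Cdc23, which had 153.4% of its counts and rose with it (r = 0.66). On the lower side stood Cdt1 at -0.46 (SE 0.29, adjusted p 0.51), E2f1 at -0.55 (SE 0.42, adjusted p 0.591) and Mcm2 at -0.24 (SE 0.42, adjusted p 0.865). Landmarks in between were Mki67 at 0.45, Top2a at 0.51, Cdk1 at 0.40, Ccnb1 at 0.52, Pcna at -0.12 and Mcm5 at -0.08, none past the test. The standard errors had a median of 0.45 for S phase and 0.54 for mitosis members. The 95% interval of the fold change stayed under 2 on the log2 scale for 17 of 18 S phase and 22 of 25 mitosis members, so that larger rises lay outside it for these.

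In males the members again did not pass the test. The background was 0% of the genes tested at the threshold and 10.2% at an unadjusted p under 0.05, where edgeR had 2 members, DESeq2 2 (11.8% of genes tested) and limma voom 0 (10.6%). The groups overlapped for all 43 members (0.0282% of genes tested did not overlap). Members stood above 0 in 17 of 18 cases for S phase and 22 of 25 for mitosis, with median log2 fold changes of 0.39 and 0.49, where all genes had 0.11. By group medians of TPM 19 of 43 were higher in ΔEcad males. Without ΔEcad male 2 the medians were 0.06 and 0.19, and without 4 libraries that stand apart (ΔEcad male 2 and 7, ΔEcad female 3 and 5), -0.07 and -0.09.

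The 2 members at an unadjusted p under 0.05 in males were Rrm2 at 1.47 (SE 0.70, adjusted p 0.477) and Birc5, survivin, a subunit of the chromosomal passenger complex, at 1.17 (SE 0.56, adjusted p 0.484), both by edgeR. Rrm2 rested on 1 tumour, and without ΔEcad male 2 its log2 fold change was -0.04. Birc5 ran from 6.21 to 36.1 TPM in Ecad males (median 20.1) and from 8.3 to 76.3 TPM in ΔEcad males (median 16.8). It was high in ΔEcad male 7 (76.3 TPM), ΔEcad male 1 (66.8 TPM) and ΔEcad male 2 (62.2 TPM), and without ΔEcad male 1 its log2 fold change was 0.66. In that tumour Kif23 was at 0.34 TPM and Mybl2 at 0.66 TPM, the lowest of the ΔEcad males for both. Aurka, the Aurora kinase of the spindle poles, stood at 1.01 (SE 0.55, adjusted p 0.517), and at 0.35 without ΔEcad male 2. On the lower side were Mybl2 at -0.23 (SE 0.43, adjusted p 0.867), Plk1 at -0.25 (SE 0.54, adjusted p 0.884) and Foxm1 at -0.10 (SE 0.41, adjusted p 0.946). Mki67 stood at 0.80, Top2a at 0.49, Ccnb1 at 0.39, Pcna at 0.54 and Mcm5 at 0.35.

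Female and male tumours were compared within each genotype. Among Ecad tumours most members had higher values in females, but none passed the test (0.0508% of genes tested passed it). All 18 S phase members and 22 of 25 mitosis members were above 0, with median log2 fold changes of 0.56 and 0.35 against 0.05 for all genes, and 41 of 43 members had the higher group median of TPM in females. The ranges overlapped for all 43 members, where 0.113% of genes tested did not overlap. At an unadjusted p under 0.05 edgeR had 2 members (16% of genes tested), DESeq2 2 (18.7%) and limma voom 18 (29.4%), all higher in females. By class, limma voom had 14 of the 18 S phase members and 4 of the 25 mitosis members. The lowest adjusted p of a member under any alternative, 0.0521, was that of Mcm2 in limma voom.

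Those 2 members were Cdt1 at 0.68 (SE 0.29, adjusted p 0.243) and Mcm2 at 0.88 (SE 0.42, adjusted p 0.298) by edgeR, followed by Cenpe, a kinetochore motor, at 1.18 (SE 0.66, adjusted p 0.381). Cdt1 ran from 13.2 to 38 TPM in Ecad males (median 20.2) and from 18 to 48.4 TPM in Ecad females (median 34.7). Mcm2 ran from 8.6 to 50.4 TPM in Ecad males (median 23.4) and from 13.5 to 82.6 TPM in Ecad females (median 41.8). Both had the higher median in females, and the ranges overlapped. Cdc20 at -0.06 (SE 0.49, adjusted p 0.968), Ube2c at -0.05 (SE 0.48, adjusted p 0.972) and Plk1 at -0.02 (SE 0.54, adjusted p 0.989) stood slightly below 0. Keratinocyte markers moved with this comparison. The 10 markers summed to 8.77 to 24620 TPM in Ecad males (median 5027) and to 5.31 to 2001 TPM in Ecad females (median 8.20), with Krt5, Krt14, Krt15 and Krt1 all at 0 in 1 male and 2 females. The 6 skeletal muscle markers had medians of 2483 and 15.0 TPM, and ran from 402.5 to 15070 TPM and from 2.63 to 4141 TPM. Over the 32 tumours the S phase score fell as the keratinocyte score rose (r = -0.52, both on deviations from group means), as did the mitosis score (r = -0.35). Macrophage markers, with medians of 1682 TPM in Ecad males and 595.6 TPM in Ecad females, had r = -0.55 with the S phase and -0.57 with the mitosis score. The adipocyte score had -0.45 and -0.42, and the T cell score -0.37 and -0.45. Taken on the scores themselves, r with the macrophage score was -0.55 for S phase and -0.56 for mitosis. Without the 2 tumours farthest from the median macrophage score it was -0.37 and -0.43. With the keratinocyte and melanocytic scores as covariates the medians turned to -0.14 for S phase and -0.31 for mitosis members. The part of macrophages, fat, T cells and muscle in the sex difference was not tested.

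Among ΔEcad tumours no member passed the test between females and males either (0.0395% of genes tested passed it). At an unadjusted p under 0.05, 0 members stood in edgeR, DESeq2 and limma voom, against 8.81%, 10.3% and 2.57% of genes tested, and all 43 members overlapped (0.00564% of genes tested did not). The median log2 fold change was 0.23 for S phase, 10 of 18 above 0, and 0.48 for mitosis, 22 of 25 above 0, against -0.06 for all genes. Kif23 at 1.07 (SE 0.60, adjusted p 0.611), Kif20a at 0.95 (SE 0.63, adjusted p 0.669) and Cenpf at 0.81 (SE 0.61, adjusted p 0.711) had the smallest p on the higher side, by edgeR. Without ΔEcad female 3, which had 43.9 TPM of Kif23 against at most 19.4 TPM in the other ΔEcad females, they stood at 0.50, 0.06 and 0.28. ΔEcad male 1 was at 0.34 TPM of Kif23. Lower in females stood Birc5 at -0.71 (SE 0.56, adjusted p 0.724), Cenpa, the histone variant of centromeres, at -0.51 (SE 0.46, adjusted p 0.776) and E2f1 at -0.46 (SE 0.42, adjusted p 0.776). Without ΔEcad female 3 the medians were -0.34 for S phase and 0.02 for mitosis, and without ΔEcad male 2, 0.56 and 0.68. In limma voom they were -0.14 and 0.05.

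**Figure D4:**
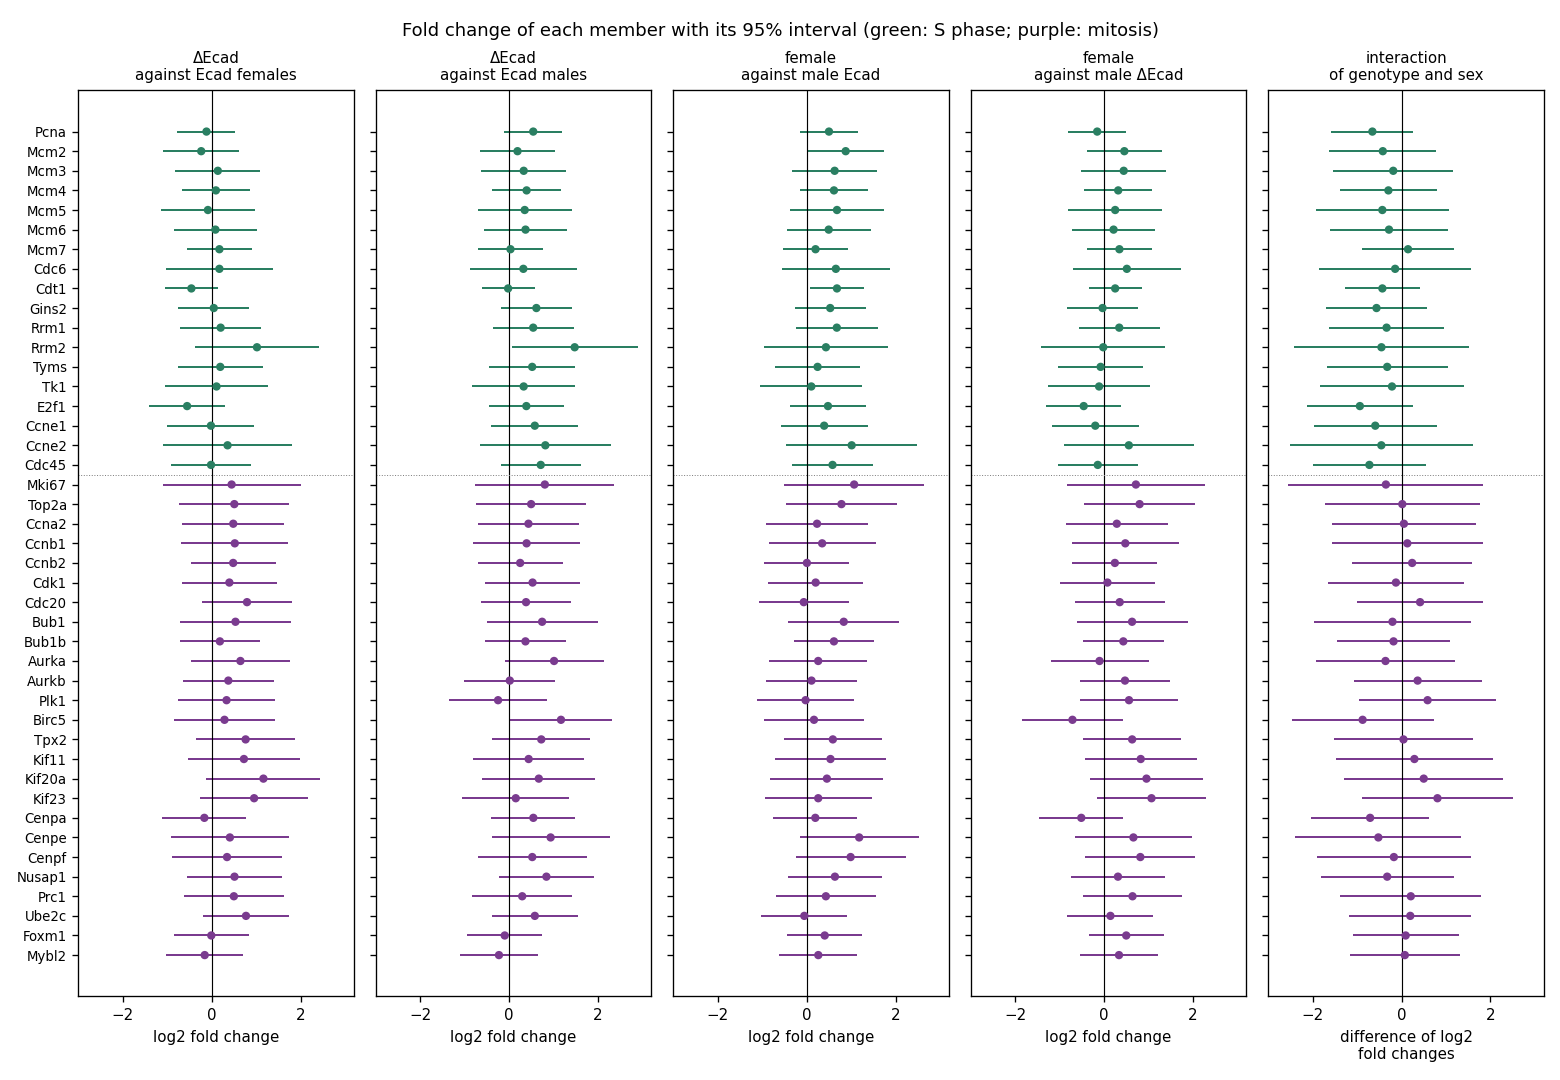
Points are edgeR log2 fold changes of the 43 members in the 5 comparisons, with lines for the 95% interval, S phase in green above the dotted line and mitosis in purple. The last panel is the difference between the fold changes of the sexes. Most intervals include 0, and the exceptions, Rrm2 and Birc5 in males and Cdt1 and Mcm2 in Ecad tumours, did not pass the adjusted test.

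Whether the effect of genotype differed between the sexes was tested as an interaction, the ΔEcad to Ecad fold change of females less that of males. No member passed (0% of genes tested passed), and 0 members stood at an unadjusted p under 0.05 in edgeR (17.7% of genes tested) and DESeq2 (19.3%). In limma voom 10 of 43 did, all lower, against 23.7% of genes tested. Those were 10 of the 18 S phase members and 0 of the 25 mitosis members. In edgeR the S phase members were below 0 in 17 of 18 cases, with a median of -0.43. The mitosis members were below 0 in 10 of 25, with a median of 0.05, where all genes had -0.16. E2f1 at -0.94 (SE 0.59, adjusted p 0.416), Pcna at -0.66 (SE 0.45, adjusted p 0.467) and Cdc45 at -0.73 (SE 0.62, adjusted p 0.573) had the smallest p below 0, and Kif23 at 0.81 (SE 0.84, adjusted p 0.653), Plk1 at 0.58 (SE 0.76, adjusted p 0.731) and Cdc20 at 0.42 (SE 0.70, adjusted p 0.7998) above 0, by edgeR. Standard errors were larger here, with medians of 0.64 for S phase and 0.77 for mitosis members. Without ΔEcad female 3 the medians were -0.86 and -0.57, and without ΔEcad male 2, -0.06 and 0.29. In limma voom they were -0.99 and -0.71, and with the keratinocyte and melanocytic scores as covariates 0.29 and 0.69. Genotype comparisons of the 2 sexes share no tumours, but each shares its groups with the sex comparisons and with the interaction, so their values are not independent.

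The spread of the members between tumours was larger than that of most genes. The SD of log2 CPM within groups had a median of 1.202 over the mitosis members and 0.94 over the S phase members, against 0.86 over all genes tested, and 24 of 25 mitosis and 12 of 18 S phase members lay above that value. The mitosis member below it was Mybl2 (0.84). Mki67 had the largest SD, 1.91, and 12.98% of all genes tested had a larger one. Ccne2 followed with 1.545, then the kinetochore proteins Cenpe with 1.48 and Cenpf with 1.44, and Top2a with 1.43. At the other end stood Cdt1 with 0.57, Pcna with 0.62 and the helicase subunits Mcm7 with 0.72 and Mcm4 with 0.74. Mcm7 is uncertain, since the overlapping Cops6 had 142.7% of its counts. Ccna2, Nusap1, Prc1, Gins2 and Cdc45 likewise overlap Exosc9, Oip5, Rccd1, Gse1 and Ufd1, which had 65.99%, 15.97%, 17.85%, 543.4% and 525% of their counts.

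Across the 25 mitosis members, SD and log2 exon length had r = 0.57, and across the 18 S phase members r = 0.06, while across all genes tested it was -0.16. Genes are not independent replicates, so these are descriptions. Mki67 has 10061 exon bases. Its log2 CPM less the mean of the other 24 mitosis members was below 0 in 10 tumours, between 0 and 1 in 2 tumours and over 1 in 20 tumours, from -1.70 in Ecad male 8 to 2.75 in Ecad female 1. Low tumours occurred in every group. Ecad male 8, with a mitosis score of 5.03, had 2.54 TPM of Mki67, and ΔEcad male 3, with a mitosis score of 3.80, had 18.7 TPM. The difference rose with the level of long against short genes (r = 0.52 on deviations from group means, n = 32). Among the other mitosis members, Cenpf (r = 0.46), Cenpe (0.45) and Kif23 (0.44) stood highest and Ube2c (-0.22) and Cenpa (-0.20) lowest. The order did not follow exon length throughout. Cenpa has 5860 exon bases, Bub1b 4275 (r = 0.39) and Prc1 8225 (r = 0.24). The part of gene length in these values was not tested.

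**Figure D5:**
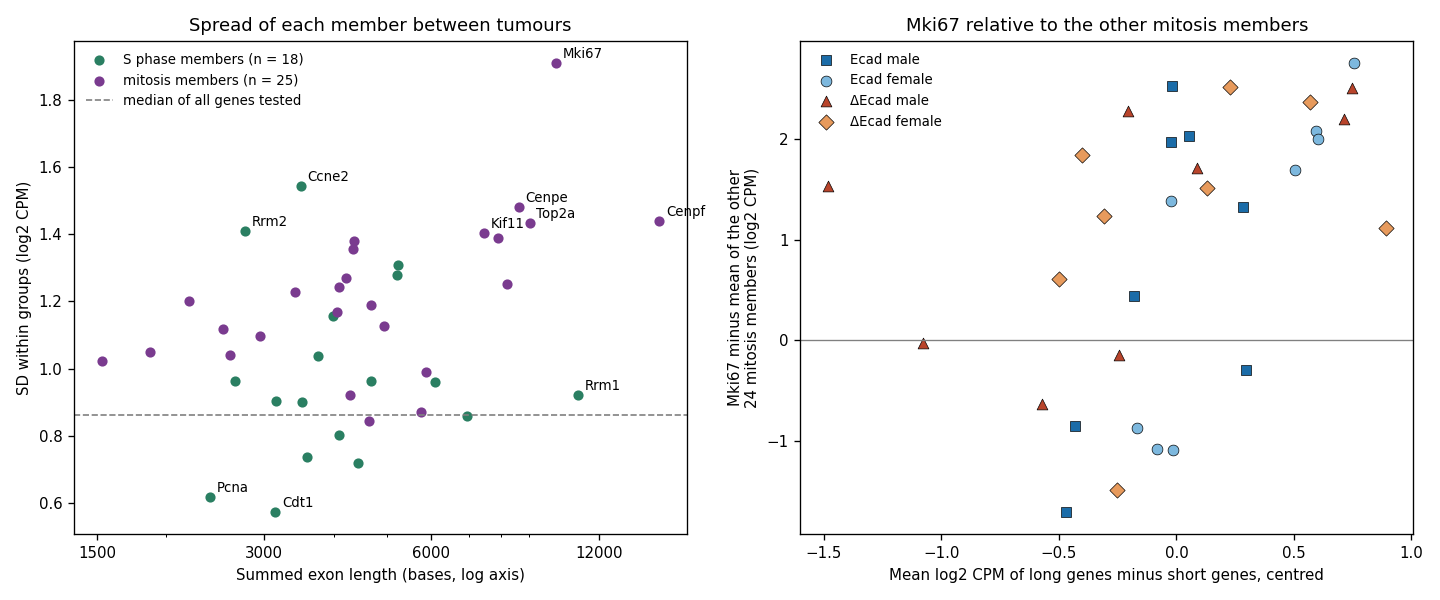
On the left, each point is a member, with its summed exon length on a log axis and the SD of its log2 CPM within groups, and the dashed line is the median SD of all genes tested, 0.86. Mki67 stands highest at 1.91 and Cdt1 lowest at 0.57. On the right, each point is a tumour, with the mean log2 CPM of long genes less that of short genes (centred) against Mki67 less the mean of the other 24 mitosis members, and 10 tumours of all 4 groups lie below 0.

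Genes outside the set that moved most like it were mostly further genes of the cycle. By r of log2 CPM deviations with the mitosis score over 32 tumours, the 10 closest were Kif2c and Nuf2 (both 0.97), Ska3 and Kif14 (both 0.96), Ncaph and Hmmr (both 0.95), Spag5 (0.95), Sgo1 and Cdca2 (both 0.94) and Anln (0.94). Of these, 7 were in the list of other cell cycle genes. Among the closest to the S phase score were Fignl1, Ncaph, Exo1 and Rfc5 (all 0.95), Uhrf1, Fanci and Haspin (all 0.94) and Dtl and Tcf19 (both 0.93). Of these, 4 were in that list, with Ncaph, a condensin subunit, counted there under mitosis.

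That list held 27 other genes of S phase, 32 of mitosis and 14 brakes of the cycle, such as the cyclin-dependent kinase inhibitors, and all 73 were tested. None passed the test in any of the 5 comparisons. The S phase genes had median log2 fold changes of 0.09 in females and 0.34 in males, with 17 and 25 of 27 above 0, and the mitosis genes 0.47 and 0.45, with 31 and 30 of 32 above 0. Between Ecad females and males these medians were 0.44 and 0.43, with 27 of 27 and 31 of 32 above 0, and between ΔEcad females and males 0.14 and 0.59, with 19 and 30 above 0. In the interaction they were -0.25 and -0.02, with 5 and 14 above 0. The brakes had medians of 0.10, 0.10, 0.04, 0.24 and -0.003 in the 5 comparisons, with 8, 8, 10, 10 and 7 of 14 above 0.

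Among the brakes, Cdkn1c, which encodes the kinase inhibitor p57, reached the highest level in any tumour, 744.5 TPM. Cdkn1a, another such inhibitor, had the higher median in each group. Cdkn1c ran from 8.43 to 744.5 TPM in Ecad males (median 45.7), from 2.06 to 26.9 TPM in Ecad females (median 8.68), from 5.50 to 180.9 TPM in ΔEcad males (median 36.5) and from 1.38 to 364.0 TPM in ΔEcad females (median 31.3). Ecad females thus had the lowest top of the range, with overlap throughout. By edgeR its log2 fold change was 2.81 (SE 1.01, adjusted p 0.132) in females, -0.79 (SE 0.95, adjusted p 0.774) in males, -3.26 (SE 1.03, adjusted p 0.118) between Ecad females and males and 3.61 (SE 1.37, adjusted p 0.153) in the interaction. It rose with the adipocyte score (r = 0.70, 4 markers), the skeletal muscle score (r = 0.54) and the hair follicle score (r = 0.43) over the 32 tumours, all on deviations from group means, and fell with the mitosis score (r = -0.52). Adipocyte markers summed to 15.8 to 1372 TPM in Ecad males, 7.34 to 176.3 TPM in Ecad females, 24.8 to 461.8 TPM in ΔEcad males and 2.98 to 2582 TPM in ΔEcad females, and their part in the Cdkn1c difference was not tested.

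The other genes of the list with the smallest p in either direction were as follows. Btg2, an antiproliferative gene, stood at 0.85 (SE 0.40, adjusted p 0.305) in females, and Rbl2 and Wee1, a retinoblastoma relative and the kinase that restrains Cdk1, at -0.52 (SE 0.31, adjusted p 0.462) and -0.45 (SE 0.30, adjusted p 0.54), by edgeR. In males, Gins4 and Rfc3, a helicase cofactor and a clamp loader subunit, stood at 0.66 (SE 0.26, adjusted p 0.439) and 0.68 (SE 0.28, adjusted p 0.441), and Wee1 at -0.57 (SE 0.30, adjusted p 0.516). Between Ecad females and males, Mcm10 and Pola1, which start DNA synthesis, stood at 1.19 (SE 0.53, adjusted p 0.26) and 0.99 (SE 0.52, adjusted p 0.348) and Btg2 at -0.42 (SE 0.40, adjusted p 0.636). Between ΔEcad females and males, Atad2 and Incenp stood at 0.87 (SE 0.47, adjusted p 0.597) and 0.69 (SE 0.40, adjusted p 0.625), and Gins4 and Rfc3 at -0.51 (SE 0.26, adjusted p 0.575) and -0.46 (SE 0.28, adjusted p 0.637). In the interaction, Btg2 stood at 0.67 (SE 0.57, adjusted p 0.566), and Rfc4 and Rbl2 at -0.94 (SE 0.59, adjusted p 0.42) and -0.68 (SE 0.44, adjusted p 0.436). None of these passed the adjusted test. Not all brakes fell as the members rose. Rbl1, E2f7 and E2f8, which are targets of E2F themselves, rose with the S phase score (r = 0.86, 0.84 and 0.68 on deviations from group means, n = 32), while Cdkn1a, which encodes the inhibitor p21, had r = -0.27.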

How the data were processed

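RNA of 32 primary mouse melanomas was sequenced after poly(A) selection with a stranded kit. The authors aligned reads with STAR to GRCm38.p5 (mm10), checked them with FastQC 0.11.5, and deposited raw counts per gene and, separately, TPM values, which scale for gene length and library. Whether counting used the strand, and whether a batch correction was applied to these tumours, is not given in the sources used here. Symbols came from GENCODE M21 and start regions from RefSeq (GRCm38.p6).

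Counts were tested with edgeR 4.0.16 (quasi-likelihood, robust, TMM scaling, filterByExpr, 1 coefficient per group, all 32 tumours), which left 17717 of 50600 genes, and p-values were adjusted over all of them by Benjamini-Hochberg. DESeq2 1.42.0, limma voom with quality weights (version 3.58.1) and limma on log2(TPM + 1) were alternatives, as were other scalings, filters and covariates, a replicate block, and the tumours left out in turn. Scores are means of log2 CPM with a prior count of 1, and SDs and correlations are over deviations from group means unless stated. Total counts per tumour (24036333 to 63923086) set the counting error. Scripts were tested on simulated data, with changes put into 50 genes per size between the female genotypes. The test called 14% of them at an absolute log2 fold change of 1, 56% at 2 and 80% at 3. Members that did not pass may thus still have changed.

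The members and gene lists were chosen with earlier results of these data known. All 43 members are given by range and count. The 20 landmarks are given with their levels, and in each comparison the 3 members with the smallest p in each direction are named, with the 10 other genes most like each score and, of the other cell cycle genes, the 2 with the smallest p in each direction. A gene that the rule names beside the S phase score is not reported here.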

Additional observations from a re-analysis of the deposited data

Results flagged for a closer look

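Levels of the 20 landmarks and of 4 summary measures were screened in the 4 groups of 8 for a tumour whose gap to its nearest neighbour was large against the range of its group. Of 96 such screens 16 picked out a tumour, where chance picks about 1 in 20, and the screens are not independent because the members move together. Ecad female 3 was picked as low 11 times. On the log2 CPM scale it was at 4.00 for Cdk1, 1.71 for Aurkb, 1.94 for Plk1, 4.49 for Foxm1, 2.30 for Mcm5, -0.88 for Cdc6, 2.16 for Rrm2, 1.01 for Tk1, 2.56 for E2f1 and 1.66 for Ccne1, and its S phase score was 2.87. ΔEcad male 2, the library with Xist and without counts of the Y chromosome, was picked as high 4 times, at 8.69 for Pcna, 8.94 for Rrm2, 6.66 for Tyms and 6.21 for Ccne1. ΔEcad female 5 was picked once, for a mitosis score less S phase score of -2.13. ΔEcad female 3, the highest tumour for most members, was not picked on either score.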

How the results depend on the processing

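No member passed the test in any of 229 combinations of a comparison with an alternative, and the lowest adjusted p was 0.0521 (limma voom, Mcm2, Ecad females against males). Medians of the members moved by less than the SD of the scores within groups (0.87 for S phase, 1.09 for mitosis), but several changed sign, and the cause was not tested. Medians for S phase and mitosis members follow in that order. In females, limma voom gave -0.64 and -0.46, the keratinocyte and melanocytic covariates 0.60 and 0.92, and leaving out 4 libraries (ΔEcad male 2 and 7, ΔEcad female 3 and 5, an alternative chosen after seeing the data) -0.29 and 0.11. In males the same omission gave -0.07 and -0.09. Between Ecad females and males the covariates gave -0.14 and -0.31. In the interaction limma voom gave -0.99 and -0.71 and the covariates 0.29 and 0.69. With the level of long against short genes as a covariate, also chosen after seeing the data, the interaction median of mitosis members was -0.05, and limma on log2 TPM gave -0.06 there and -0.04 for S phase members in females.

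With each tumour left out in turn, the medians for S phase members ran from -0.41 to 0.25 in females, 0.06 to 0.60 in males, 0.47 to 0.78 between Ecad females and males, -0.34 to 0.56 between ΔEcad females and males and -0.86 to -0.06 in the interaction. Those for mitosis members ran from -0.08 to 0.67, 0.19 to 0.67, 0.20 to 0.54, 0.02 to 0.68 and -0.57 to 0.29. The correlation of the scores ran from 0.86 without ΔEcad female 3 to 0.93 without ΔEcad female 5. Of 1460 alternatives of single-member fold changes, 157 had the other sign. Rrm2 moved by over 1 SD without ΔEcad male 2, to -0.04 in males.

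Deviations of tumours with the same number in different groups had a median r of 0.04 (48 pairs, from -0.55 to 0.42), against -0.006 for different numbers. With so wide a spread, these values cannot decide whether the numbers pair the tumours. With the number as a replicate block 0 members were called, and the medians were -0.08 and 0.20 in females, 0.45 and 0.53 in males, 0.67 and 0.52 between Ecad tumours, 0.09 and 0.33 between ΔEcad tumours and -0.55 and -0.30 in the interaction.

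The E2F share of mitosis members was 0.0% from 100 bases before to 50 bases after the start. The CHR share of S phase members was 13.3% with TTTGAA as the sole word. The S phase E2F share was 26.7% in that window, and the mitosis CHR share 70% with that word. The number of all genes called varied more. In females it was 213 by edgeR, 1281 by DESeq2, 1 by limma voom, on log2 TPM, with the block and with the 2 groups alone, 322 and 352 with RLE and upper-quartile scaling, 555 without a filter, 87 with a stricter one, 11 and 3 with the marker and length covariates, 893 without the 4 libraries and 1 to 695 with a tumour left out. Between Ecad tumours it was 9, but 1023 by DESeq2, 92 by limma voom, 14 with the marker covariates or without the 4 libraries, and 8 to 21 with a tumour left out. Between ΔEcad tumours it was 7, 24 by DESeq2 and 0 with the 2 groups alone. In males it was 0, 21 by DESeq2 and 1 with the marker covariates. In the interaction it was 0, 1225 by DESeq2, 201 and 218 with RLE and upper-quartile scaling, 284 without a filter, 2 with the marker covariates, 534 without the 4 libraries and up to 848 with a tumour left out. Depth did not leave any member at or under 3 counts.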

Other observations

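The genes that followed the level of Mki67 relative to the other mitosis members were looked up after its values were seen, and are given as a description. Over 32 tumours, on deviations from group means, the closest were Cep162 (r = 0.91), Nsrp1 and Golga4 (both 0.90), Cntrl (0.89), Prpf38b and Rbm25 (both 0.88), Ppig (0.88), Akap9 (0.87) and Ik and Hmgn5 (both 0.86). Cep162, Cntrl and Akap9 encode proteins of the centrosome or centriole, Golga4 a protein of the Golgi, and Prpf38b, Rbm25 and Ik proteins linked to RNA splicing. Opposite to it ran Akt1s1 (r = -0.86), Slc25a10 and Sdhc (both -0.84), Ube2m (-0.84) and Zfpl1 (-0.83). None of these 15 genes was in the list of other cell cycle genes. Of the first 10 genes, 6 had at least 8116 exon bases, the limit used above for long genes, and the lengths ran from 1934 for Hmgn5 to 21350 for Akap9. The 5 opposite genes were all under that limit, from 1810 to 3455 exon bases. Of these, Ube2m at 2357 and Zfpl1 at 1810 lay within the limit of 2751 used above for short genes. Among the 9427 genes from which both limits were set, 1886 reached the long limit and 1887 lay within the short one. The part of gene length in the pattern was not tested.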
